A study of Drosophila melanogaster with 4 samples.

Results

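The Osiris genes of Drosophila melanogaster were followed in RNA of pharate adults, flies whose adult body is complete but which have not yet left the pupal case. The members were all loci of the deposited tables whose single gene name is Osi followed by a number, and 23 of 13866 loci met this rule. They were Osi1 to Osi23, each with 1 locus, and 0 loci with several joined names held an Osiris name. Differences between lines were taken for the 9 members with a mean of 1 FPKM or more over the libraries, called the tested members; FPKM is a fragment count scaled to transcript length and sequencing depth. The 9 were selected on their mean FPKM, and the gene group itself was chosen with the values of these libraries known, so what follows is a description, with no test.

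The study compared 4 lines with 1 library each, LU.10580.tg1, LU.10580.tg2, LU.10580hom and LU.10580/CAG, shortened here to tg1, tg2, hom and CAG. In the deposited table the values of LU.10580/CAG stand under the heading het. The sources used here do not say what LU.10580 or the endings of the names stand for. They also give neither the sex of the animals, nor their hours before eclosion, nor how many were pooled. Flies of all lines were kept at 24 °C, and RNA of whole animals was depleted of ribosomal RNA. With 1 library per line no difference has a replicate check and no p-value was computed.

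Osiris proteins are insect proteins that enter the secretory pathway, carry a hydrophobic stretch and are thought to act in membranes of the cells that secrete cuticle. Most of the genes lie side by side in a cluster that is conserved among insects and falls within Triplo-lethal, a region of the fly genome known for its sensitivity to gene dose. They are known for bursts of expression while epidermis, tracheae and foregut lay down cuticle. Osi23, also called gore-tex, shapes the pores in the cuticle of olfactory bristles. Osi21, also called diehard4, acts in photoreceptors on the fate of rhodopsin. Osi6, Osi7 and Osi8 have been linked to resistance to the fruit toxin octanoic acid. For most other members no individual role is described here.

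Of the 23 members 22 lay on chromosome arm 3R and 1, Osi21, on 2L. Osi1 to Osi20 formed 1 run on 3R from 1999367 to 2167146 in the dm3 build, a stretch of 167.8 kb with a median gap of 3.59 kb between neighbours. The narrowest gap was 0.364 kb, between Osi3 and Osi4, and the widest was 34.4 kb, between Osi1 and Osi2. Outside the run were Osi22 at 3R:9116438 to 9117568, Osi23 at 3R:26269871 to 26271031 and Osi21 at 2L:11284586 to 11285603. There were 0 overlaps between a member locus and any other locus of the tables. In a Release 6 annotation 22 names were present, and Osi10 is divided there into Osi10a and Osi10b. In the run 17 of the 19 members with an annotated strand lay on the forward strand, the exceptions being Osi4 and Osi11. The longest coding sequences of the 22 members ran to between 202 codons in Osi5 and 750 codons in Osi17, with a median of 285.

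A small group at one end of the run held most of the Osiris RNA in the tg1, tg2 and hom libraries and was low in CAG. Osi15, Osi18, Osi19 and Osi20 together had 233 FPKM in tg1, 195 in tg2, 127 in hom and 16.9 in CAG. Those values were 90.6%, 90.5%, 81.8% and 51.8% of the summed FPKM of all 23 members in the same order. The other 19 members together had 24.3 FPKM in tg1, 20.3 in tg2, 28.3 in hom and 15.7 in CAG. The difference between CAG and the other libraries in the summed level therefore lay mainly in these 4 genes, which were singled out after their values were seen.

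**Figure D1:**
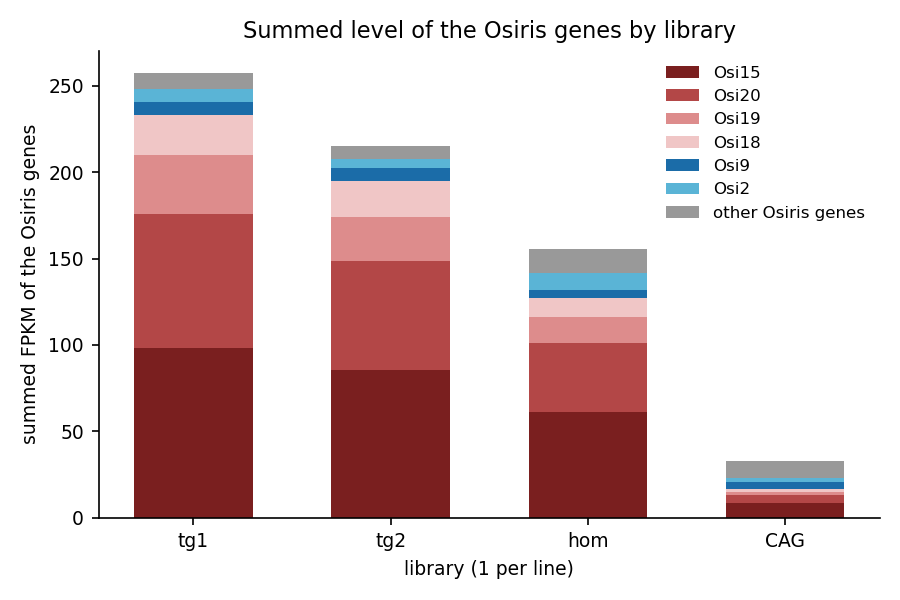
Summed FPKM of the 23 Osiris genes (vertical axis) in the tg1, tg2, hom and CAG libraries (horizontal axis, 1 library per line, no error bars), with the 6 most abundant genes in colour. The sum was 257 FPKM in tg1, 215 in tg2, 155 in hom and 32.7 in CAG, and the red segments (Osi15, Osi20, Osi19 and Osi18) shrink most in CAG.

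Osi15, at 3R:2127528 to 2129375, was the most abundant member in every library. It had 98.0 FPKM in tg1, 85.6 in tg2, 61.4 in hom and 8.67 in CAG. CAG was the lowest and tg1 the highest, and the lowest of the other libraries stood well clear of CAG. Taken on log2(FPKM + 1), a scale that shrinks differences at low values, the difference from CAG was 3.36 in tg1, 3.16 in tg2 and 2.69 in hom. Osi15 ranked 1437 of 13866 loci by mean FPKM.

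Osi20, at 3R:2165819 to 2167146, is the last member of the run and was the second most abundant in every library. It had 78.0 FPKM in tg1, 63.2 in tg2, 39.5 in hom and 4.43 in CAG. Its difference from CAG was the largest among the members, at 3.86 in tg1, 3.56 in tg2 and 2.90 in hom, which is 14.6-fold, 11.8-fold and 7.47-fold on the FPKM + 1 scale. Counted from the highest, these differences ranked 16, 17 and 22 among the 11689 loci with a mean of 1 FPKM or more.

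Osi19 and Osi18 are the neighbours of Osi20 and showed the same order of libraries at lower levels. Osi19, at 3R:2161086 to 2162918, had 33.6 FPKM in tg1, 25.5 in tg2, 15.3 in hom and 2.12 in CAG. Its difference from CAG was 3.47 in tg1, 3.09 in tg2 and 2.38 in hom. Osi18, at 3R:2155972 to 2157533, had 23.4 FPKM in tg1, 20.3 in tg2, 10.9 in hom and 1.70 in CAG. Its difference from CAG was 3.18 in tg1, 2.98 in tg2 and 2.14 in hom. In all 4 genes the libraries ran, high to low, from tg1 through tg2 and hom to CAG.

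The proportions among these 4 genes varied less than their levels. The ratio of Osi15 to Osi20 in FPKM was 1.26 in tg1, 1.36 in tg2, 1.55 in hom and 1.96 in CAG. The ratio of Osi20 to Osi19 was 2.32 in tg1, 2.47 in tg2, 2.59 in hom and 2.09 in CAG, and that of Osi19 to Osi18 was 1.43, 1.26, 1.40 and 1.25 in the same order. Osi15 was thus furthest above Osi20 in CAG, and both other ratios were lowest in CAG, the last of them close to its value in tg2.

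**Figure D2:**
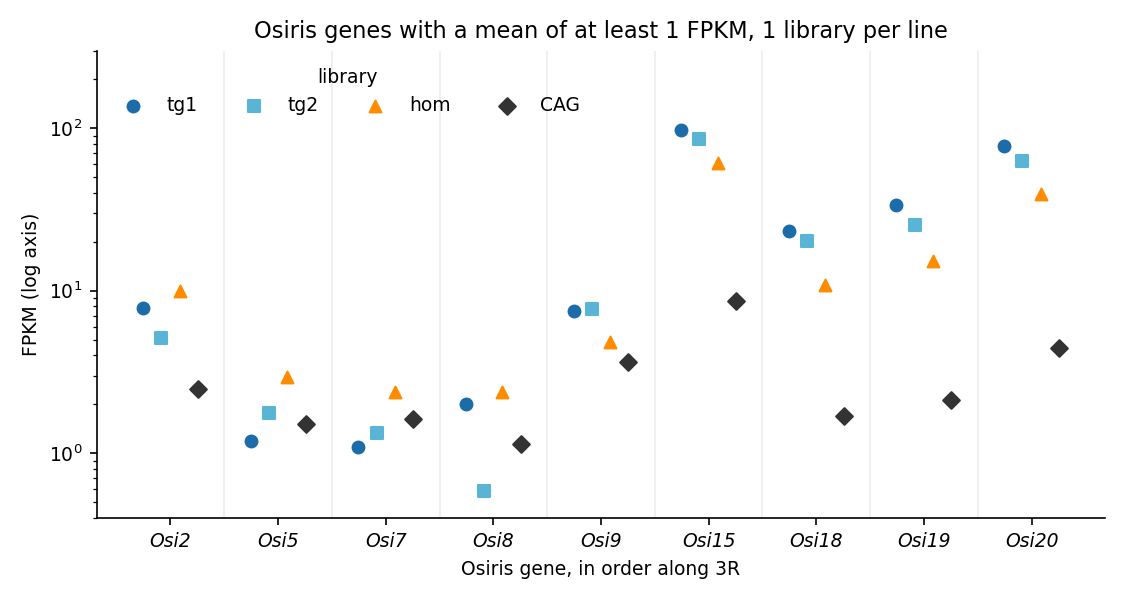
FPKM on a log axis (vertical) of the 9 Osiris genes with a mean of 1 FPKM or more, in order along 3R (horizontal), with 1 point per library and no error bars. For Osi15, Osi18, Osi19 and Osi20 the CAG point, between 1.70 and 8.67 FPKM, lies far below the other 3, while for Osi5, Osi7 and Osi8 all 4 points lie between 0.589 and 2.96 FPKM.

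A library was said to stand apart where its log2(FPKM + 1) was higher than all 3 others, or lower than all 3 others, by 1 or more. CAG stood below the others at 4 of the 9 members, Osi15, Osi18, Osi19 and Osi20, and at 0.351% of all tested loci (41 of 11689). CAG stood above the others at 0 members, against 0.779% of all loci, and no other library stood apart at any member. Over all tested loci tg1 stood above at 0.111% and below at 0.180%, tg2 above at 0.659% and below at 0.505%, and hom above at 0.684% and below at 0.744%. Ordered by the gap between CAG and the next library, Osi20, Osi15, Osi19 and Osi18 were 4th, 5th, 9th and 12th of the 41 loci. The 3 loci ahead of Osi20 were listed at 0 in CAG, and a 0 in these tables can be a failed estimate. Of the loci ranked between Osi15 and Osi18, CG14147, snoRNA:Psi28S-1153, CG18180 and CG13048 were above 0 in CAG. An unnamed locus among them was listed at 0 there.

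Of the other loci at which CAG stood below, 27 carried a single other name, 8 carried no name and 2 carried joined names. They included structural cuticle proteins. A cuticle protein symbol (Cpr with a number, Lcp, Twdl, Ccp84, Pcp, Acp65 or Edg) was carried by 68 tested loci, a pattern chosen after the values were seen. CAG stood below at 5 of the 68, against 0.351% of all tested loci. These were Cpr64Ab, Cpr66Cb, Lcp65Ac, Lcp9 and TwdlBeta. Cpr64Ab had 383 FPKM in tg1, 395 in tg2, 492 in hom and 124 in CAG. TwdlBeta, of the Tweedle family of cuticle proteins, had 61.9 FPKM in tg1, 51.8 in tg2, 74.5 in hom and 18.6 in CAG. At both the highest library was hom, while Cpr66Cb had its highest value in tg1, as the 4 Osiris genes did, with 31.5 FPKM in tg1, 14.0 in tg2, 23.4 in hom and 5.89 in CAG. In each pair with CAG more of the 68 were called higher than lower, though the medians differed in sign. In tg1 against CAG 8 were called higher, against 1.19% of all tested loci, and 3 lower, against 2.36%, with a median of 0.24. In tg2 against CAG 9 were called higher, against 2.25%, and 5 lower, against 2.34%, with a median of −0.13. In hom against CAG 13 were called higher, against 1.87%, and 1 lower, against 3.43%, with a median of 0.36. The 68 also differed among the other lines. In tg2 against hom 2 were called higher, against 3.78%, and 17 lower, against 2.69%, with a median of −0.52. In tg1 against tg2 8 were called higher, against 1.33%, and 0 lower, against 1.98%, with a median of 0.28. In tg1 against hom 0 were called higher, against 1.82%, and 3 lower, against 1.72%, with a median of −0.15.

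Among the remaining tested members Osi2 and Osi9 also had their lowest value in CAG. Osi2, at 3R:2034955 to 2039236, had 7.84 FPKM in tg1, 5.12 in tg2, 9.97 in hom and 2.47 in CAG. The highest library was hom, and tg2 lay between tg1 and CAG. The difference from CAG was 1.35 in tg1, 0.82 in tg2 and 1.66 in hom, so tg2 was short of a difference of 1, the size used for a call here and a 2-fold difference on the FPKM + 1 scale. With a pseudocount of 0.1 FPKM in place of 1 the difference of tg2 from CAG at Osi2 was 1.02, past the call, and with one of 5 FPKM that of tg1 was 0.78, short of it. Osi9, at 3R:2085935 to 2087832, had 7.46 FPKM in tg1, 7.77 in tg2, 4.86 in hom and 3.63 in CAG. Here the tg libraries lay close together above hom and CAG, with differences from CAG of 0.87 in tg1, 0.92 in tg2 and 0.34 in hom, none of them called. With the pseudocount of 0.1 FPKM the differences at Osi9 were 1.02 in tg1 and 1.08 in tg2, both past the call.

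Osi5, Osi7 and Osi8 were low in every library and had their highest value in hom. Osi5, at 3R:2053117 to 2054550, had 1.19 FPKM in tg1, 1.76 in tg2, 2.96 in hom and 1.51 in CAG. Osi7, at 3R:2074714 to 2077405, had 1.09 FPKM in tg1, 1.33 in tg2, 2.39 in hom and 1.62 in CAG. In neither did CAG have the lowest value. Osi8, at 3R:2080997 to 2082114, had 2.02 FPKM in tg1, 0.589 in tg2, 2.36 in hom and 1.15 in CAG. The lowest library was tg2, and the difference of −1.08 between tg2 and hom was the only call among these 3 genes; with a pseudocount of 5 FPKM it was −0.40, and no longer a call.

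The 9 tested members had at least 1.15 FPKM in CAG, so none of them passed the threshold through the other libraries alone, but a count over members that passed remains a description. Across pairs, the members with a call were read against the share of all 11689 tested loci called in the same pair and direction. Of the 9 tested members 5 were called higher in tg1 than in CAG, against 1.19% of all loci, and 0 lower, against 2.36%. The 5 were Osi2 and the 4 genes at the end of the run. In tg2 against CAG 4 members were called higher, against 2.25% of all loci, and 0 lower, against 2.34%. In hom against CAG 5 were called higher, against 1.87%, and 0 lower, against 3.43%. These 3 comparisons share the single CAG library, so they are not separate pieces of evidence, and the 4 genes were called in each of them.

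The medians over the 9 tested members were 1.35 for tg1 against CAG, 0.92 for tg2 against CAG and 1.66 for hom against CAG. Over all tested loci the medians were −0.03, −0.01 and −0.01 in the same order. Over the 5 tested members other than the 4 genes the medians were 0.49, 0.14 and 0.65. All 9 members lay above 0 in hom against CAG and 7 of 9 did so in each of the tg comparisons, where Osi7 was below 0 in both, Osi5 in tg1 and Osi8 in tg2.

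Among tg1, tg2 and hom the 4 genes at the end of the run differed less than they did from CAG, while Osi5, Osi7 and Osi8 had their largest differences in these pairs. Of the 9 tested members 0 were called in tg1 against tg2, against 1.33% of all loci higher and 1.98% lower, and the differences lay between −0.34 at Osi5 and 0.92 at Osi8. In tg1 against hom 2 members were called higher, Osi19 by 1.09 and Osi18 by 1.04, against 1.82% of all loci, and 0 lower, against 1.72%. Osi20 at 0.96 and Osi15 at 0.67 were short of the call. With a pseudocount of 5 FPKM Osi19 at 0.93 and Osi18 at 0.84 were also short of it. In tg2 against hom 0 members were called higher, against 3.78% of all loci, and 1, Osi8, lower, against 2.69%. The 4 genes differed by between 0.47 and 0.84 in tg2 against hom. Osi2, Osi5, Osi7 and Osi8 lay below hom in both tg libraries. At the 4 genes and at Osi9 hom lay below both tg libraries.

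**Figure D3:**
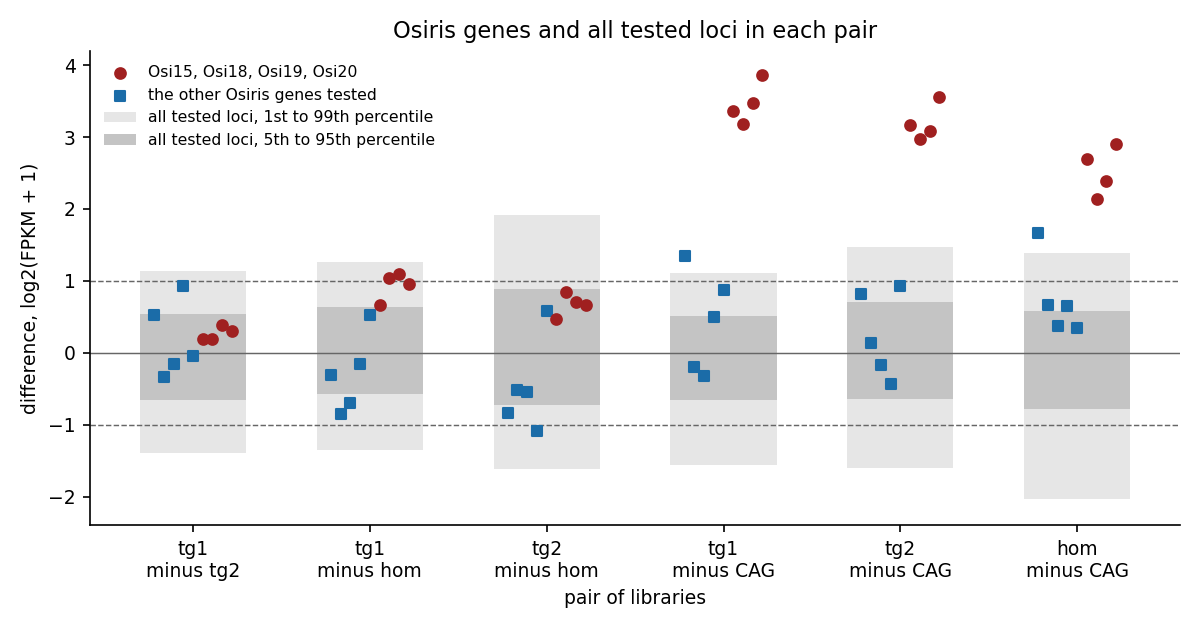
Difference on the log2(FPKM + 1) scale (vertical) of the 9 tested Osiris genes in each of the 6 pairs of libraries (horizontal), with grey bars for the spread of all 11689 tested loci and dashed lines at a difference of 1 in either direction. Osi15, Osi18, Osi19 and Osi20 (red circles) lie between 2.14 and 3.86 in the 3 pairs with CAG, above the 99th percentile of all loci, and between 0.19 and 1.09 in the other pairs.

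Place along the run separated the 4 genes only in part. From the start of Osi15 to the end of Osi20 they covered 39.6 kb, and Osi18, Osi19 and Osi20 followed each other with no other locus between them. Between Osi15 and Osi18, 26.6 kb apart, lay Osi16, which was listed at 0 in all 4 libraries, and Osi17, which had 0.542 FPKM in tg1, 0.472 in tg2, 0.396 in hom and 0.213 in CAG. Osi17 thus had the order of libraries seen at the 4 genes, at levels below 1 FPKM. Also between Osi15 and Osi18 were CG31556 and CG31560, both listed at 0 in all 4 libraries. Osi14, just before Osi15, had 1.67 FPKM in tg1, 0.478 in tg2, 0.332 in hom and 0.589 in CAG, and so did not have the order of libraries seen at Osi15, 1.06 kb away.

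Beyond Osi20 no such difference from CAG was seen. The next locus, with the joined names CG10298 and CG17917, starts 0.460 kb after Osi20, and it had 19.9 FPKM in tg1, 23.7 in tg2, 21.5 in hom and 16.7 in CAG. SmD2, which encodes a core protein of spliceosomal particles, had 19.1 FPKM in tg1, 14.0 in tg2, 20.6 in hom and 17.9 in CAG. Pak, a protein kinase gene within 30 kb of Osi20, had 9.41 FPKM in tg1, 12.9 in tg2, 10.9 in hom and 12.4 in CAG. CG17919, CG18048 and CG42724 made up the 6 tested loci in that stretch, and none of the 6 was called in any pair.

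Within the run 7 loci carried other names and 2 of them passed the filter. CG15589, at 3R:2024535 to 2033402, is named Osi24 in the Release 6 annotation and was not a member by its name in the tables. It had 1.48 FPKM in tg1, 1.18 in tg2, 1.38 in hom and 1.00 in CAG, close together in all libraries. NPFR1, a neuropeptide receptor gene, had 1.25 FPKM in tg1, 1.59 in tg2, 0.955 in hom and 1.58 in CAG. Neither was called in any pair. Of the 5 below the filter CG31556 and CG31560 were listed at 0 throughout, and the highest value among the others was 1.34 FPKM, at CG15597 in tg2.

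**Figure D4:**
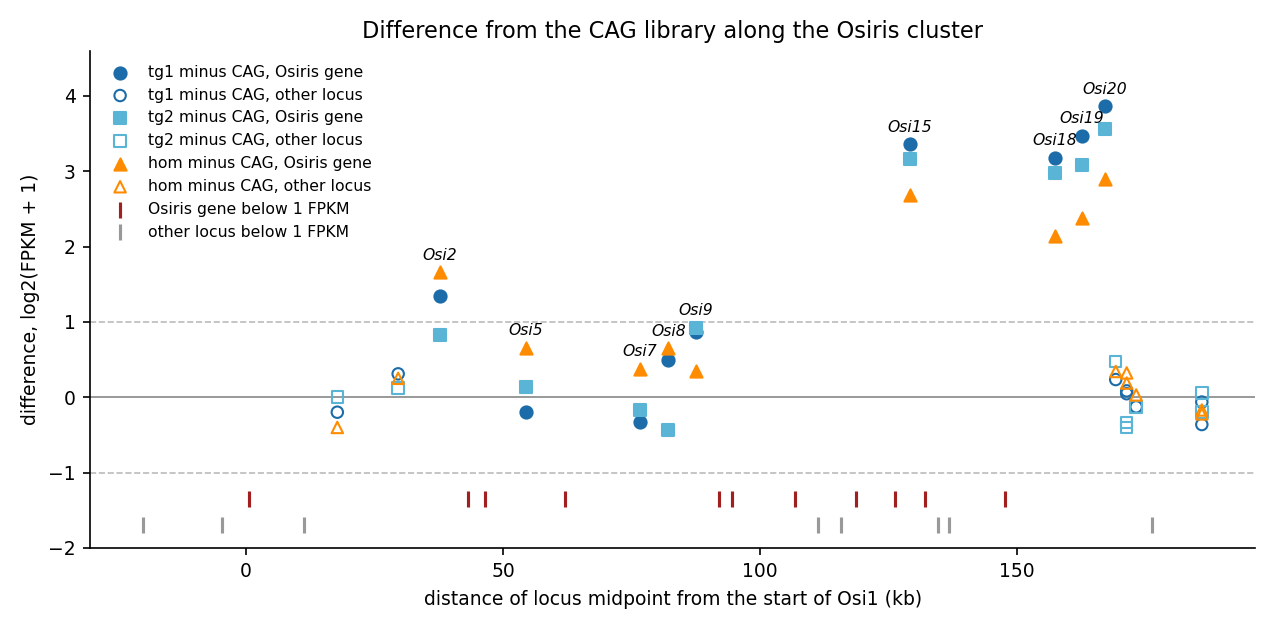
Difference from the CAG library on the log2(FPKM + 1) scale (vertical) of tested loci against the distance of their midpoint from the start of Osi1 in kb (horizontal), with filled symbols for Osiris genes, open symbols for other loci and ticks for loci below a mean of 1 FPKM. Osi15, Osi18, Osi19 and Osi20 stand between 2.14 and 3.86 at the right, and the open symbols beyond them lie within 1 of 0.

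The 14 members below a mean of 1 FPKM are given by their values only. Osi21, Osi23 and Osi16 were listed at 0 in all 4 libraries, and 401 of all 13866 loci were. For the olfactory pore gene Osi23 and the photoreceptor gene Osi21 no level could therefore be given. Osi10 was listed at 0 in tg1, hom and CAG and had 0.0404 FPKM in tg2. Osi11 was listed at 0 in tg1 and hom and had 0.103 FPKM in tg2 and 0.122 in CAG. Osi22 was listed at 0 in tg1 and had 0.0638 FPKM in tg2, 0.0967 in hom and 0.148 in CAG.

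The other 8 had values above 0 in every library. Osi12 lay just outside the threshold, with a mean of 0.995 FPKM and values of 0.382 in tg1, 0.688 in tg2, 1.96 in hom and 0.956 in CAG. Osi3 followed, with a mean of 0.876 FPKM and values of 0.758 in tg1, 0.273 in tg2, 1.12 in hom and 1.35 in CAG. Its highest value was in CAG, unlike any of the 9 tested members. Just inside the threshold were Osi8 and Osi7, with means of 1.53 and 1.61 FPKM. Osi1 had 0.246 FPKM in tg1, 0.254 in tg2, 0.659 in hom and 0.603 in CAG. Osi13 lay between 0.509 and 0.845 FPKM, Osi6 between 0.223 and 0.387, and Osi4 between 0.0793 and 0.303. The octanoic acid gene Osi6 was thus lower in FPKM than its neighbours Osi7 and Osi5 in every library. By FPKM, which is scaled to length, 39.1% of the members and 84.3% of all loci had a mean of 1 or more.

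Other genes of cuticle formation were read for comparison. Of all tested loci between 1.19% and 3.78% were called per pair and direction. At such shares a short list would hold few calls or none. Few calls in this list or in those below therefore give no contrast with the Osiris genes. Of 14 tested genes of chitin synthesis and remodelling 0 were called in tg1 or tg2 against CAG and 1 was called lower in hom than in CAG. That gene was Cht5, a chitinase, with 29.8 FPKM in tg1, 31.6 in tg2, 18.3 in hom and 41.3 in CAG. Gasp, the most abundant of them, a chitin-binding protein of tracheae, had 246 FPKM in tg1, 199 in tg2, 265 in hom and 245 in CAG. In the other pairs 0 of the 14 were called, and CG13183 (reb), which helps chitin synthase, came nearest, at −0.99 in tg2 against hom and 0.81 in tg1 against tg2. It had 15.5 FPKM in tg1, 8.37 in tg2, 17.6 in hom and 14.8 in CAG. Of 5 tested genes of apical matrix proteins with a zona pellucida domain 1 was called, dyl, which is needed for wing hairs and bristles. It was higher in tg2 than in CAG by 1.19, with 3.16 FPKM in tg1, 4.62 in tg2, 3.90 in hom and 1.46 in CAG. The most abundant of these genes, pio, had 73.0 FPKM in tg1, 62.8 in tg2, 75.4 in hom and 97.5 in CAG.

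Tanning and ecdysone timing genes were examined as signs of the stage of the animals. Of 9 tested tanning genes 0 were called higher than in CAG in any line, 2 were called lower in hom, 1 lower in tg1 and 0 lower in tg2. The gene e (ebony), which conjugates dopamine for pale cuticle, had 25.8 FPKM in tg1, 43.3 in tg2, 25.0 in hom and 62.8 in CAG. The gene b (black), which supplies beta-alanine for that reaction, had 29.2 FPKM in tg1, 45.2 in tg2, 20.1 in hom and 41.9 in CAG, and was called higher in tg2 than in hom. The summed level of the 9 was 1187 FPKM in tg1, 1154 in tg2, 1224 in hom and 1349 in CAG. Pu, the most abundant of them, had 469 FPKM in tg1, 458 in tg2, 488 in hom and 442 in CAG.

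Of 9 tested ecdysone timing genes Blimp-1, a repressor that times the response to ecdysone, was called lower in tg1 and hom than in CAG. It had 4.47 FPKM in tg1, 5.96 in tg2, 3.0 in hom and 10.6 in CAG. The early regulator br was called lower in tg1 than in hom, with 4.25 FPKM in tg1, 5.04 in tg2, 9.78 in hom and 5.26 in CAG. The most abundant, ftz-f1, had 108 FPKM in tg1, 113 in tg2, 90.8 in hom and 92.8 in CAG. The summed level of the 9 was 315 FPKM in tg1, 325 in tg2, 308 in hom and 329 in CAG. Of the tested genes of both lists ple, Ddc, e, Dat, EcR, Eip74EF, Hr39 and Blimp-1 had their highest value in CAG. The 4 Osiris genes had their lowest value there. At Ddc and Hr39 the CAG value was close to that of another library. The tanning gene ple had 259 FPKM in tg1, 253 in tg2, 241 in hom and 389 in CAG. Highest in tg2 were b, t, Eip75B and ftz-f1. Highest in hom were y, stw, Pu, br, usp and Eip78C. The part of tanning and ecdysone timing genes in the result was not tested.

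Among markers of tissues in which Osiris genes act 0 were called higher in tg1, tg2 or hom than in CAG. Of all tested loci 1.19%, 2.25% and 1.87% were, in the same order, so 0 in such short lists is near those shares. Of 4 tracheal markers dys and vvl were measured and tested and 0 were called in any pair. Their summed level was 18.5 FPKM in tg1, 16.3 in tg2, 19.3 in hom and 20.3 in CAG. Of 6 tested olfactory markers only Os-E, an odorant-binding protein gene, was called in any pair, with 4.85 FPKM in tg1, 13.2 in tg2, 6.80 in hom and 13.5 in CAG. Pbprp5, the most abundant of them, had 26.3 FPKM in tg1, 23.6 in tg2, 33.6 in hom and 31.5 in CAG, and lush, another odorant-binding protein gene, had 2.08, 3.26, 1.34 and 3.55 in the same order. The summed level of the 6 was 47.5 FPKM in tg1, 54.6 in tg2, 54.8 in hom and 67.2 in CAG. Of 12 tested photoreceptor markers only Rh5 was called, with 5.89 FPKM in tg1, 16.3 in tg2, 1.28 in hom and 19.7 in CAG. The main rhodopsin gene ninaE, the most abundant, had 826 FPKM in tg1, 962 in tg2, 747 in hom and 919 in CAG. The summed level of the 12 was 1581 FPKM in tg1, 1790.0 in tg2, 1308 in hom and 1683 in CAG. In RNA of whole animals fewer cells of a type and less RNA per cell cannot be told apart.

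How deeply each library was sequenced is unknown. Steps between low values, at 26 to 41 loci near the commonest ratio, gave an estimated depth relative to CAG of 1.12 in tg1, 1.16 in tg2 and 0.765 in hom. The part of depth in the results was not tested. The median over all loci was between 8.05 and 8.48 FPKM in the 4 libraries, and the most abundant locus held between 14.9% and 30.4% of the FPKM sum.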

How the data were processed

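Total RNA of pharate adults from 4 lines was sequenced as paired reads of 48 nt after depletion of ribosomal RNA, per the labels' protocols. The authors deposited FPKM values, 1 per locus and library, as the file headers name them. TopHat, SAMtools, bedtools, Cufflinks and the dm3 build are named without versions in the submitters' processing notes. The sources used here give neither the annotation, nor whether strand was used, nor how multi-mapping reads were handled.

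Locus starts in the files appear to count from 0: on arm 2L the commonest offset to a Release 6 annotation (Ensembl release 115) was 1 base for starts, at 351 of 1708 loci, and 0 for ends, at 352. Starts are therefore given here plus 1. Release 6 gave names, strand and coding length only. No genome or sequence table was used here, so no sequence is shown.

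Differences were taken on log2(FPKM + 1) for the 11689 loci whose mean reached 1 FPKM. A difference of 1 was called. The steps were tested on simulated data with known changes planted only at loci with a mean of 5 FPKM or more. Calls at loci with lower means were not tested there. Python 3.11.15 with numpy 2.4.6, pandas 2.3.3 and matplotlib 3.10.9 was used. Named were all members, tested loci between members, and for each list the most abundant gene and the largest differences; loci beyond the run and other single genes were chosen after their values were seen. The members and lists were chosen with earlier results of these data known. Alternatives were pseudocounts of 0.1 and 5, no filter, a filter of 5 FPKM, median centring, trimmed-mean scaling and leaving out loci listed at 0.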

Additional observations from a re-analysis of the deposited data

How the results depend on the processing

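With 1 library per line no replicate could be left out. No paired analysis was possible because each line has 1 library and the labels give no replicate numbers. The 4 Osiris genes Osi15, Osi18, Osi19 and Osi20 were called higher in tg1, tg2 and hom than in CAG under all alternatives run, and 4 or 5 members stood below the other libraries in CAG. Median centring and trimmed-mean scaling moved no result past a threshold, and leaving out loci listed at 0 moved no count of members. A pseudocount of 0.1 FPKM gave 1 member called higher in tg1 than in tg2 (Osi8) and 2 called lower in tg1 than in hom (Osi5 and Osi7), and a median over members of 1.08 for tg2 against CAG. It also brought Osi9 past the call in tg1 and tg2 against CAG and Osi2 in tg2 against CAG, so that 6 members were called higher in each. A pseudocount of 5 FPKM gave 0 members called higher in tg1 than in hom and 0 lower in tg2 than in hom, and a median of 0.78 for tg1 against CAG. With no filter 3 members were called higher and 1 lower in tg1 than in hom, and the medians over all 23 members were 0.0 for tg1 against CAG and 0.0498 for hom against CAG, because the members near 0 enter. With a filter of 5 FPKM the call of Osi8, lower in tg2 than hom, was lost, since Osi8 is no longer tested. In that direction 0 members remained. Osi5 and Osi7 also dropped out, and the medians against CAG were 3.27 for tg1, 3.03 for tg2 and 2.26 for hom. In CAG, Osi18 at 1.70 FPKM, Osi19 at 2.12, Osi20 at 4.43, Osi2 at 2.47 and Osi9 at 3.63 lay below that filter. These genes passed it only through the other libraries, so calls and medians under it add no support.

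The counts over all loci that moved most, relative to the main setting, were as follows. Counts not listed could also move, by a smaller ratio. With a pseudocount of 0.1 those for hom against CAG went from 219 to 318 higher and from 401 to 586 lower. With a pseudocount of 0.1 the loci called higher were 238 for tg1 against tg2, 382 for tg1 against hom, 691 for tg2 against hom, 243 for tg1 against CAG and 409 for tg2 against CAG, and the loci called lower were 384 for tg1 against tg2, 317 for tg1 against hom and 446 for tg1 against CAG. With a pseudocount of 5 the loci called higher were 72 for tg1 against tg2, 74 for tg1 against hom, 175 for tg2 against hom, 50 for tg1 against CAG, 99 for tg2 against CAG and 112 for hom against CAG, and those called lower were 88, 107, 166, 138, 135 and 189 in the same order. With a filter of 5 FPKM, which leaves fewer loci tested, the loci called higher were 129 for tg1 against hom, 254 for tg2 against hom, 81 for tg1 against CAG, 145 for tg2 against CAG and 144 for hom against CAG, and those called lower were 110 for tg1 against tg2, 129 for tg1 against hom, 165 for tg1 against CAG, 173 for tg2 against CAG and 233 for hom against CAG. Members at 1 to 3 FPKM rest on few fragments, and the cause of changes at such members under other pseudocounts was not tested.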

Other observations

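Osi22 lies far from the run, and its neighbour CG15887, at 3R:9113371 to 9114532, was 1 of the 41 loci at which CAG stood below the other libraries. CG15887 had 3.60 FPKM in tg1, 5.93 in tg2, 3.01 in hom and 0.770 in CAG, whereas Osi22 had at most 0.148 FPKM in any library. The ectodermal gene ect, at 3L:10183376 to 10194934, was another of the 41, with 7.21 FPKM in tg1, 8.38 in tg2, 4.85 in hom and 1.86 in CAG. CG14147, at 3L:10965754 to 10966582, had 167 FPKM in tg1, 112 in tg2, 202 in hom and 19.5 in CAG. These loci were chosen after their values were seen, and no relation to the Osiris genes was tested.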
